A study of Mus musculus with 35 samples.

Results

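Genes of the photoreceptor outer segment and the visual cycle were followed through retinal development and after loss of Brg1. They were taken as a list of 10 (Prph2, Rom1, Abca4, Rp1, Cdhr1, Tulp1, Aipl1, Rdh12, Guca1a and Gucy2e), and these 10 stood among 17275 protein-coding gene starts that could be placed in the peak files. The study performed ChIP-Seq on mouse retina, and 27 of its 35 libraries had a peak or domain file. Wild-type retinae were collected at postnatal day 0 (P0), P14 and P21 for H3K4me3, H3K27Ac and H3K27me3, with 2 libraries of each mark at each stage. Wild-type retinae at P12 gave 1 library of H3K4me3, 1 of H3K27Ac and 2 of H3K27me3. Brg1-deficient retinae at P12, labelled BRG1 -/-, gave 1 library of H3K4me3, 2 of H3K27Ac and 1 of H3K27me3. They carried Brg1 Lox/Lox alleles and the Chx10-Cre transgene, which is expressed in a mosaic of retinal progenitor cells, so wild-type cells remained in them, and microphthalmic mice were chosen preferentially. Brg1 peaks came from 1 anti-FLAG ChIP library, made at P0 from mice with a FLAG tag knocked into Brg1. The labels do not say whether replicates came from separate animals, so p-values measure the spread between these libraries, which may be technical.

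Rod and cone outer segments are stacks of membrane discs that capture light, built and renewed after birth as photoreceptors mature. The proteins studied here shape the disc rim, anchor and supply the growing discs, make the cyclic GMP that keeps the light-sensitive channels open, and clear or recycle retinal after it has been bleached. Mutations in the human orthologues cause retinal dystrophies. H3K4me3 marks the starts of active or poised genes, H3K27Ac marks active promoters and enhancers, and H3K27me3 is deposited by Polycomb over repressed genes. Brg1 hydrolyses ATP to move nucleosomes within SWI/SNF chromatin remodelling complexes.

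Some promoters of these genes shared a short sequence that the selection did not use. Of the 9 genes with an entry in the RefSeq promoter table (GRCm38.p6), 4 held GGATTA, the core letters recognised by the photoreceptor homeodomain factor Crx, in the 250 bases before the start. Read on either strand (GGATTA or TAATCC), these letters were present in 5.90% of 17274 coding promoters of that length. All 4 matches read GGATTA on the strand of the gene, from base -58 to -53 in Abca4, -53 to -48 in Aipl1, -57 to -52 in Guca1a and -42 to -37 in Gucy2e, counted back from -1 just before the start. The 4 promoters are printed to show the shared letters, in capitals, with that of Prph2, which has no match, beside them. They lie at chr3:122044210-122044459 (plus strand), chr11:72037510-72037759 (minus strand), chr17:47400607-47400856 (minus strand), chr11:69237023-69237272 (minus strand) and chr17:46910228-46910477 (plus strand), and each is written 5′ to 3′ on the strand of its gene.
Abca4: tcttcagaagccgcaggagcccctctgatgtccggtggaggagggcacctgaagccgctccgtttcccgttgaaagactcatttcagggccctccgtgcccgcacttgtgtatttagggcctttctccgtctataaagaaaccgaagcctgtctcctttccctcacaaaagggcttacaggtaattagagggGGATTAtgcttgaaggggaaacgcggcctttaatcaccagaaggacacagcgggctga
Aipl1: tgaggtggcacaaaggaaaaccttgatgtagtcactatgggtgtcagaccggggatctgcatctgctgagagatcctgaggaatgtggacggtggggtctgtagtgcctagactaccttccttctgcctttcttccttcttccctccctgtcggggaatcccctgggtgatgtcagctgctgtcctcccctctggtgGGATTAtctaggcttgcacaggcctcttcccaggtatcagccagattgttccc
Guca1a: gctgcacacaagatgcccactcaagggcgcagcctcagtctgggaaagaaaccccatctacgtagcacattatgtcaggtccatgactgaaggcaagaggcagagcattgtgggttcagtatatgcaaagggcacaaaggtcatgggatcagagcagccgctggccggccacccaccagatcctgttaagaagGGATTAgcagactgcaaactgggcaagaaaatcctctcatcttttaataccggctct
Gucy2e: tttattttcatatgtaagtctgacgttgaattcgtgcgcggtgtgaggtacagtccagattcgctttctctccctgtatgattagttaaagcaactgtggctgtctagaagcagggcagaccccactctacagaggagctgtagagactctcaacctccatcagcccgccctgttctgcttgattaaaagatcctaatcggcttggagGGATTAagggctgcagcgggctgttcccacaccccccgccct
Prph2: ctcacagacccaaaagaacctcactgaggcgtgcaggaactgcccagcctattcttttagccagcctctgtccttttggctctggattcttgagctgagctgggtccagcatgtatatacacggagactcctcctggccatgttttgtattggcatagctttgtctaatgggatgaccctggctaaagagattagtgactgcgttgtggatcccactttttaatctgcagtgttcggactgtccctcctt
A match of letters is not evidence of binding. TGCTGA and TATAAA were also searched in the same windows, and no match of theirs overlapped GGATTA in these genes. TGCTGA, the core of the element bound by Nrl, the rod leucine zipper factor, was found on either strand (TGCTGA or TCAGCA) in Aipl1 and Rdh12 and in 14.8% of all promoters. The TATA box letters TATAAA, read on the gene strand only, were found in Abca4 and in 8.42% of all promoters. The 9 promoters held a median of 5 CpG dinucleotides and 53.2% G and C, against 10 and 55.6% over all promoters, and Rom1 stood apart with 17 CpG dinucleotides and 66.8% G and C.

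The gene starts in mm9, the build of the peak files, were set from GRCm38 starts with a local offset. Prph2 began at chr17:47047562, Rom1 at chr19:9003886, Abca4 at chr3:121747402, Cdhr1 at chr14:37911526, Tulp1 at chr17:28502107, Aipl1 at chr11:71851024, Rdh12 at chr12:80309885, Guca1a at chr17:47537690 and Gucy2e at chr11:69050537. Rom1 could not be separated from a neighbour, because the start of Eml3 lay 0.307 kb away. The offset placed 8 of the 10 genes within 1 kb of where a single offset for the 5 Mb neighbourhood did, with Rom1 and Gucy2e the exceptions. With neighbours within 2 Mb it did so for 7, with Cdhr1, Tulp1 and Gucy2e the exceptions. The share of neighbouring starts that it put near a peak was 61.9% to 83.3% for the other genes but 32.8% for Rom1 and 39.5% for Cdhr1, whose positions are less certain. For the other genes with a promoter entry, the nearest other coding start was at least 11.8 kb away. Rp1 had no promoter entry, so its start was taken as the end of its RefSeq span on the minus strand, chr1:4399342. The spans of Guca1a and Aipl1 extend upstream of the start used, so further starts of these genes were not analysed here.

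Peak files held 17433 to 50861 peaks each for H3K27Ac and Brg1-FLAG and 18534 to 24124 for H3K4me3. Their read depth is not given in the sources used here. The height of a peak is its fold enrichment as the peak caller reported it (the 7th column of the file), and the height at a gene is the highest peak within 2 kb of its start, listed at 0 where no peak was called. For tests, heights were scaled so that the gene starts marked in every library had one median. The libraries of H3K4me3 at P21 stood furthest apart, with scale factors of 1.70 for replicate 1 and 0.640 for replicate 2, so deposited heights are given per library and changes are given on scaled heights. Markers of photoreceptors were higher at the later stages as well. The 5 photoreceptor markers with a start (Crx, Nrl, Nr2e3, Sag and Pde6b, of 8 listed) had summed H3K27Ac heights of 7.74 to 8.09 at P0 and 83.1 to 94.5 at P21, and all 5 had a peak at P14 and P21. Markers of the retinal pigment epithelium (7 of 10 with a start) summed to 4.61 to 5.38 at P0 and 0 to 9.84 at P21, with Rpe65, Tyr and Tyrp1 at 0 at both stages. Lens markers summed to 5.64 to 6.50 and then 0 to 5.35, all from Bfsp1, with Cryaa, Crybb2, Crygs and Mip at 0. All 3 blood markers with a start were at 0, and the 3 progenitor markers with a start summed to 20.3 to 22.9 at P0 and 3.18 to 9.49 at P21. In such bulk retinae, fewer cells carrying a mark and less of the mark per cell cannot be told apart, and the part of cell composition in the results was not tested.

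Most of these starts had less H3K4me3 at P0 than at P14 and P21. Both P0 libraries had a peak at 7 of the 10 starts, against 63.1% of all starts, and both P14 and both P21 libraries at 9, against 61.5% and 60.4%. At P21 it was higher than at P0 at 6 of the 10 genes (Prph2, Abca4, Cdhr1, Tulp1, Aipl1 and Guca1a), by 0.999 to 2.10 on the log2 scale, where 0.888% of the 11041 starts tested were called higher and 5.58% lower, and none of the 10 was lower. At P14 it was higher at 5 of the 10 (Prph2, Abca4, Tulp1, Aipl1 and Guca1a), by 1.25 to 1.89, against 0.562% of starts, and none was lower, against 1.28%. At an unadjusted p under 0.05, 7 were higher at P14, against 4.46% of starts, and 7 at P21, against 3.29%. Calls were made with limma on log2(height + 7.31) with Benjamini-Hochberg adjustment over all starts at 0.05, and 9 of the 10 genes passed the filter of a peak in at least 2 of the 6 libraries. Aipl1 and Guca1a passed it through the later stages alone, so their calls are no support for a change. Without the filter, Abca4 alone was called at P21 and Abca4 and Tulp1 at P14.

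Prph2, the tetraspanin that curves the disc rim, had H3K4me3 heights of 5.44 and 4.58 in the P0 libraries, 22.3 and 17.9 at P14, and 57.7 and 20.01 at P21. All 4 later libraries were above both P0 libraries, and the change at P21 was 1.71 ± 0.26 (log2, SE; limma, adjusted p = 0.0029). Rom1, its partner at the rim, had heights of 40.2 and 39.4 at P0, 40.0 and 48.2 at P14, and 80.5 and 21.8 at P21. The Rom1 stages overlapped, the change was 0.05 ± 0.27 (limma, adjusted p = 0.955), and the mark here cannot be told apart from that of Eml3.

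Abca4 encodes the flippase that removes retinal conjugates from the discs. Its heights were 8.13 and 8.38 at P0, 28.6 and 35.1 at P14, and 52.2 and 21.7 at P21. Both P0 libraries lay below all later ones, P14 and P21 overlapped, and it rose by 1.37 ± 0.26 at P21 (limma, adjusted p = 0.0086). Rdh12 encodes a retinol dehydrogenase that reduces all-trans-retinal in the inner segment. It had heights of 15.2 and 12.8 at P0, 32.0 and 22.7 at P14, and 53.0 and 14.6 at P21. The lower P21 library lay between the P0 values as deposited, and the change of 0.71 ± 0.28 was not called (adjusted p = 0.16).

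Tulp1, which acts in carrying proteins to the outer segment, and Cdhr1, the photoreceptor cadherin at the base of the discs, were both marked at P0. Tulp1 heights were 14.1 and 14.6 at P0, 48.8 and 51.7 at P14, and 66.1 and 20.3 at P21. Cdhr1 heights were 10.5 and 15.1 at P0, 27.2 and 40.5 at P14, and 69.3 and 23.0 at P21. Both rose at P21, Tulp1 by 0.999 ± 0.26 (limma, adjusted p = 0.035) and Cdhr1 by 1.22 ± 0.27 (adjusted p = 0.020), and Cdhr1 at P14 stood at an adjusted p of 0.051.

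The genes of cyclic GMP metabolism differed among themselves. Aipl1, the co-chaperone of the phosphodiesterase PDE6, had no H3K4me3 peak in either P0 library, then 23.7 and 13.7 at P14 and 52.8 and 11.7 at P21. Guca1a, which encodes the calcium sensor GCAP1 that activates guanylate cyclase, was likewise listed at 0 at P0, then at 15.7 and 9.52 at P14 and 51.4 and 8.46 at P21. Their fitted changes at P21, 2.10 ± 0.30 for Aipl1 (limma, adjusted p = 0.0019) and 1.92 ± 0.32 for Guca1a (adjusted p = 0.0047), depend on the added constant because P0 was at 0. Both genes passed the filter only through the stages where they were high, so these tests are no support for the change. Without the filter the adjusted p was 0.17 for Aipl1 and 0.24 for Guca1a. Gucy2e, the retinal guanylate cyclase itself, was already marked at P0 with heights of 26.6 and 27.2. It had 36.2 and 31.4 at P14 and 69.1 and 16.3 at P21, groups that overlapped, and its change of 0.25 ± 0.28 was not called (adjusted p = 0.74).

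**Figure D1:**
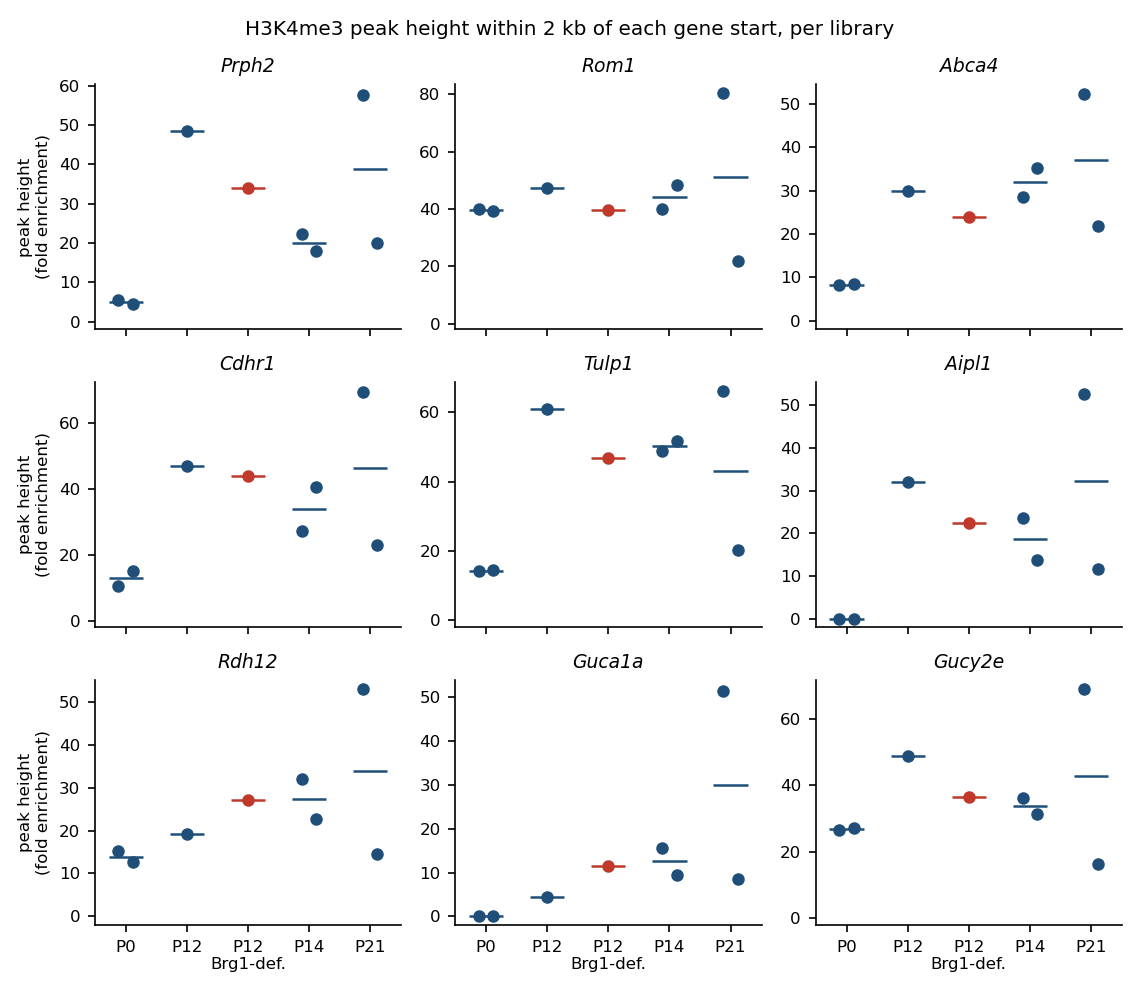
Deposited H3K4me3 peak height (fold enrichment, vertical axis) within 2 kb of the start of 9 genes, 1 point per library by stage and genotype, with a line at the group mean; wild-type is blue and Brg1-deficient red. Aipl1 and Guca1a are at 0 in both P0 libraries, Rom1 and Gucy2e are already high there, and the P21 libraries lie far apart.

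With scaled heights, all 4 P14 and P21 libraries exceeded both P0 libraries at 7 of the 10 genes (the 6 called and Rdh12), against 7.8% of starts. As deposited, this held for the 6 called genes, against 2.57% of starts. Both shares are of the 11041 starts that passed the filter. Aipl1 and Guca1a, at 0 in both P0 libraries, entered through the later stages alone, so these counts are a description. The number of calls depended on the settings. Without scaling, 0 of the genes were called at P14 and 2 at P21, and the median change over all starts at P14 was -0.16 instead of -0.03. Without P14 replicate 2 none and without P14 replicate 3 only 2 were called at P14, and without P21 replicate 1 or replicate 2 the P21 count was 2 and 3. The 6 genes called at P21 had positive changes at both stages under each of these settings, but those of Aipl1 and Guca1a could not be negative. Between P14 and P21 no member was called by limma, with 0 of the 10 higher at an unadjusted p under 0.05, against 1.67% of starts, and 1 of all 11041 starts (0.00906%) was, that of Sebox, a homeobox gene named here after its value was seen.

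The marked stretch was also longer at the later stages. The summed length of the H3K4me3 peaks at the start of Prph2 was 1.23 and 1.91 kb at P0, 7.99 and 4.26 kb at P14, and 15.1 and 8.62 kb at P21. Abca4 went from 1.23 and 1.27 kb at P0 to 3.82 and 5.50 kb at P14 and 6.34 and 5.42 kb at P21. The median over all marked starts was 1.73 and 1.86 kb at P0 and 2 and 1.64 kb at P21. In P21 replicate 1, 7 of the 9 marked genes, and in replicate 2, 5 of the 9, were longer than the 95th percentile of all marked starts, against 0 and 1 of 7 at P0. These lengths are a description and move with the number of peaks called.

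H3K27Ac was listed at 0 or low at these starts at P0 and higher in later libraries, but no change passed the adjusted test. Both P0 libraries had an H3K27Ac peak at 2 of the 10 starts (Rom1 and Gucy2e), against 50% of all starts. Both P14 libraries had one at 8 of 10, against 38.3%, and both P21 libraries at 9 of 10, against 32.5%. The gene without one at P21 was Rp1. Limma on log2(height + 3.21) called 0 of 10116 starts in each comparison of stages, with 768 and 1077 at an unadjusted p under 0.05 for P14 and P21 against P0. At that unadjusted level, 8 of the 10 genes were higher at P14, against 3.08% of starts, and 9 of 10 at P21, against 3.95%. Cdhr1, Aipl1, Rdh12 and Guca1a, listed at 0 in both P0 libraries, passed the filter through the later stages alone, so these counts are a description. Scaled or as deposited, all 4 later libraries exceeded both P0 libraries at 8 of the 10 genes, against 9.06% and 4.74% of the 10116 starts that passed the filter. Cdhr1, Aipl1 and Rdh12 are among the 8, so this count is a description too.

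Cdhr1, Aipl1 and Rdh12 had no H3K27Ac peak within 2 kb of the start used in either P0 library and a peak there in every later one. Cdhr1 had 9.10 and 27.8 at P14 and 13.3 and 10.5 at P21. Aipl1 had 14.1 and 20.4 at P14 and 8.94 and 12.7 at P21. Rdh12 had 8.03 and 11.0 at P14 and 4.76 and 6.39 at P21. As deposited, both P14 libraries lay above both P21 libraries for Aipl1 and Rdh12, and the stages overlapped for Cdhr1. On scaled heights the stages overlapped for all 3, with fitted changes from P14 to P21 of -0.03 for Aipl1, -0.09 for Rdh12 and 0.19 for Cdhr1.

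Prph2, Abca4 and Tulp1 had a low peak in 1 of the P0 libraries. Tulp1 was at 0 and 4.53 at P0, 34.1 and 33.3 at P14, and 18.7 and 11.7 at P21. Prph2 was at 0 and 4.25, then 23.5 and 24.3, then 23.7 and 7.58. Abca4 was at 0 and 4.31, then 16.7 and 24.4, then 10.6 and 12.7. No P0 library reached any later library for these genes.

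Gucy2e and Rom1 had an H3K27Ac peak in both P0 libraries already. Gucy2e was at 3.596 and 5.32 at P0, 14.1 and 14.9 at P14, and 14.9 and 19.6 at P21, a change of 1.82 ± 0.41 (limma, adjusted p = 0.23). Rom1 was at 7.12 and 8.94 at P0, 30.5 and 26.5 at P14, and 22.8 and 16.8 at P21. For both genes the P0 libraries lay below all later ones, which was not so for their H3K4me3 as deposited.

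Guca1a differed from the other genes in its timing. It had no H3K27Ac peak at P0, 0 and 5.03 at P14, and 20.9 and 11.7 at P21, so both P21 libraries lay above both P14 libraries. Its change from P14 to P21 was 2.45 ± 0.58 (limma, adjusted p = 1), and it was the only one of the 10 genes under 0.05 before adjustment in that comparison. Over all starts the median H3K27Ac change from P0 to P21 was -0.24, or -0.48 without scaling, and all 9 tested genes were positive with either. Relative to the median, their changes at P21 were 1.70 to 3.14. Those of Cdhr1, Aipl1, Rdh12 and Guca1a, listed at 0 in both P0 libraries, could not be negative before the median was taken off.

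**Figure D2:**
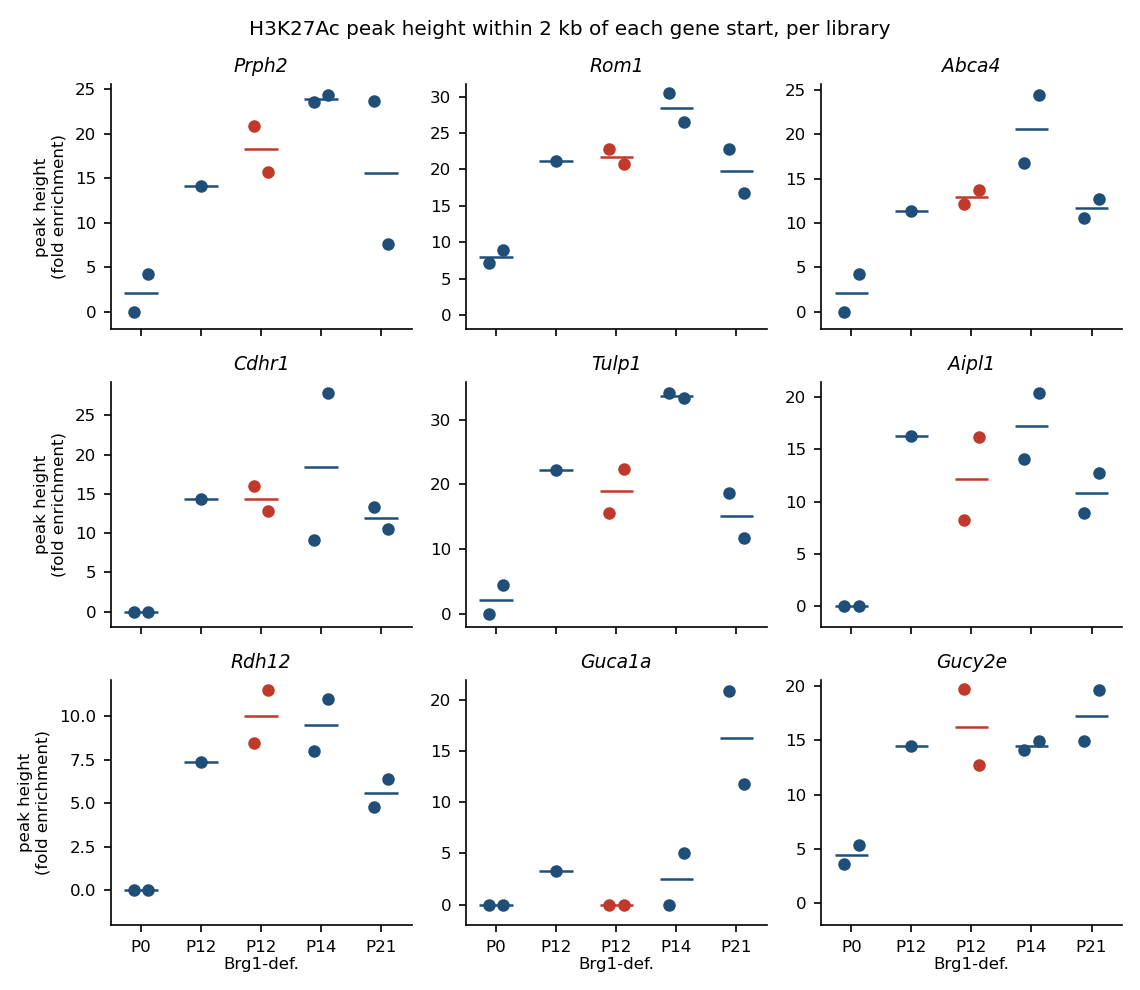
Deposited H3K27Ac peak height (fold enrichment, vertical axis) within 2 kb of the start of 9 genes, 1 point per library by stage and genotype, with a line at the group mean; wild-type is blue and Brg1-deficient red. For 8 genes all P14 and P21 libraries are above both P0 libraries, and Guca1a is at 20.9 and 11.7 at P21 but at 0 and 5.03 at P14.

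**Figure D3:**
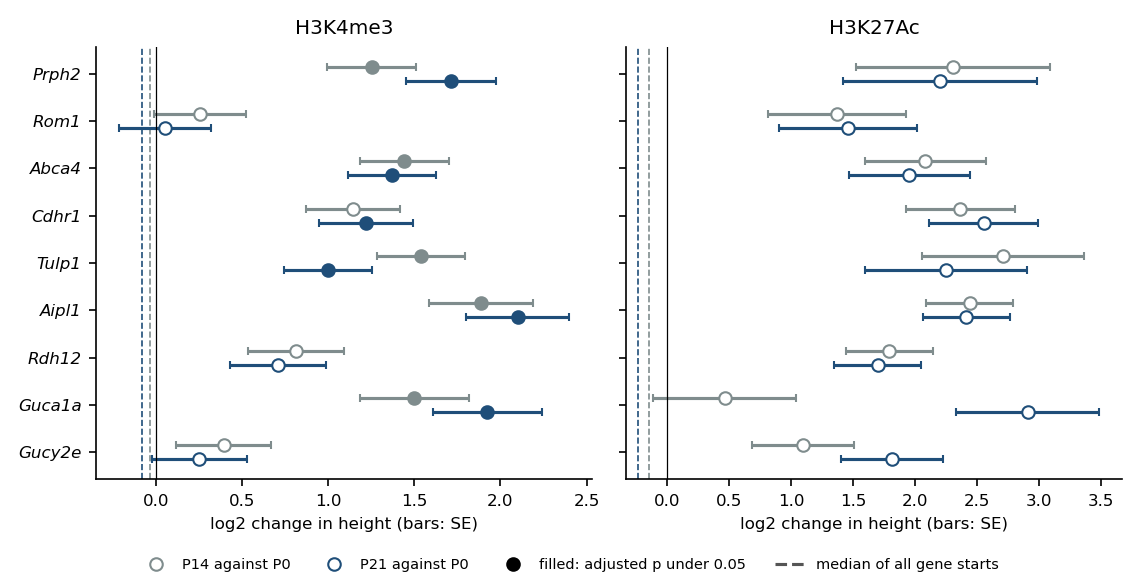
Log2 change in scaled height at each start against P0 for H3K4me3 (left) and H3K27Ac (right), with standard errors; filled points have an adjusted p under 0.05 and dashed lines are the median of all starts. For H3K4me3, 6 genes are filled at P21 and Rom1 and Gucy2e lie near 0; for H3K27Ac all points are open and to the right of 0.

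Rp1, which organises the microtubules of the outer segment axoneme, had no peak within 2 kb of the end of its span in any of the 18 peak files. The gene has transcripts with different starts, and its peaks lay inside the span. Between 45 and 55 kb into the gene, a stretch chosen after the peaks were seen, H3K4me3 height was 4.80 and 6.26 at P0, 22.3 and 19.2 at P14, and 50.4 and 24.2 at P21. H3K27Ac there was listed at 0 in both P0 libraries, then at 20.5 and 13.1 at P14 and 16.96 and 11.8 at P21. Both marks were higher in all later libraries than at P0, in the direction seen at the starts of the other genes.

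Beyond the starts, most H3K27Ac regions around the genes were listed at 0 at P0, and most fitted changes to P21 were positive. The calls depended on the settings. Peaks of the 6 libraries were merged into regions, and 145 lay in the genes and 20 kb to each side. Of the 83 that passed the filter, 24 were higher at P21 than at P0 and 0 were lower by limma, against 7.94% and 2.46% of all 33340 regions tested. The 24 called regions rose by 1.97 to 3.55 on the log2 scale, all with adjusted p between 0.048 and 0.049, close to the threshold. In 23 of them both P0 libraries were listed at 0, as they were in 66 of the 83 tested. Such regions passed the filter through later libraries alone and could not be called lower, so the counts are a description. Of the 17 tested regions with a peak in a P0 library, 1 was called higher. From P0 to P14 and from P14 to P21, limma called 0 regions, with 32 and 11 of the 83 at an unadjusted p under 0.05, all higher, and 16.0% and 6.02% of all regions under it. No region was called in the windows at P21 when heights were not scaled, or when P0 replicate 1, P0 replicate 2, P14 replicate 1 or P21 replicate 1 was left out, and 38 were without P14 replicate 2. Scaling moved the median change over all regions from 0.23 to 0.52, and 78 of the 83 regions were positive with either, where 61.3% of all regions were with scaling. The 66 regions at 0 in both P0 libraries could not have a negative change, so this count is a description.

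Called regions were found around 9 of the 10 genes, all but Rom1, and most were away from the starts used. Regions were split at any gap between merged peaks, so neighbouring pieces of the same marked stretch count separately. Of the 24, 5 lay at the start of the gene itself (2 at Aipl1 and 1 each at Cdhr1, Rdh12 and Guca1a) and 2 in the Cdhr1 window lay at the starts of Lrit1 and Lrit2. The remaining 17 were within 2 kb of none of the coding starts used. They include 3 in Rp1, which had no peak at the start used and whose other transcript starts were not analysed. Only 80.3% of 21523 coding genes had a promoter entry, so some of the 17 may lie at starts that were not placed. Downstream of the Prph2 start, a 6.70 kb region at chr17:47050669-47057363 was at 0 in both P0 libraries, 18.8 and 24.5 at P14, and 15.3 and 16.5 at P21. It lay inside the gene, 6.45 kb from the start, with a fitted change of 3.44 ± 0.46 (limma, adjusted p = 0.048). The region at the Prph2 start itself, which was not called, ended close by at chr17:47050570. In Rp1, a 6.92 kb region at chr1:4345990-4352914 was at 0 at P0, 20.5 and 13.1 at P14, and 16.96 and 11.8 at P21. Its fitted change was 3.29 ± 0.68 (limma, adjusted p = 0.048). It lay in the stretch 45 to 55 kb into the gene that also carried H3K4me3. Both this region and that in Prph2 passed the filter through the later stages alone. Their fitted changes depend on the added constant, so these tests are no support for a change. Rdh12 had the most called regions, 4, including one 34.1 kb downstream of its start that was at 0 at P0 and at 11.4 and 12.03 at P21. Upstream of Tulp1, 3 called regions lay between -3.77 and -12.03 kb from the start. Upstream of the Aipl1 start used, regions at -4.56 and -5.36 kb went the other way, with changes of -1.35 and -1.68 (limma, adjusted p = 0.32 and 0.090), neither called. The nearer one lay inside the span of the gene, close to its upstream end. Both had H3K27Ac peaks in the P0 libraries, at 5.99 and 8.10 in the nearer and 5.14 and 4.53 in the farther.

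**Figure D4:**
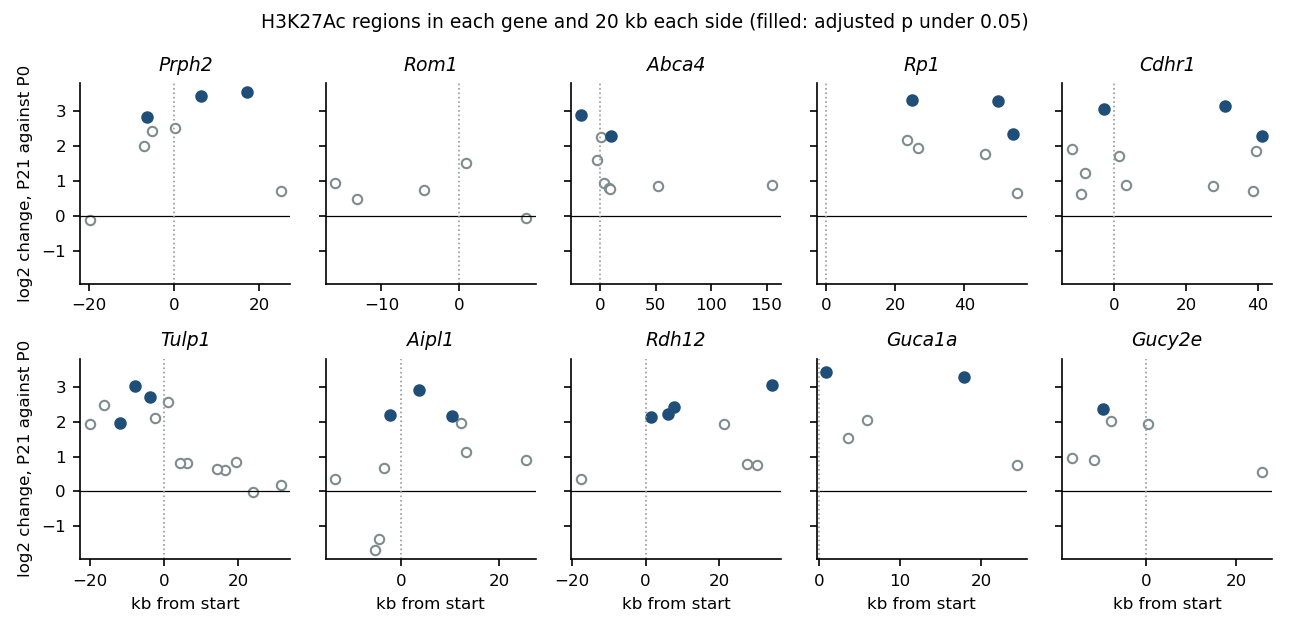
Log2 change in H3K27Ac from P0 to P21 (vertical axis) of each tested region in the gene and 20 kb each side, by distance in kb from the start along the gene (horizontal axis, dotted line at the start). Filled points, 24 of 83, have an adjusted p under 0.05 and all are above 0. Open points below 0 include the 2 upstream of the Aipl1 start used.

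The repressive mark H3K27me3 was found at 5 of the starts and then lost from them. Abca4, Cdhr1, Tulp1, Guca1a and Gucy2e lay under an H3K27me3 domain at P0 in both libraries, 5 of the 10, against 15.5% of all starts. Prph2, Rom1, Rp1, Aipl1 and Rdh12 lay under no domain in any of the 9 libraries. In the P0 libraries taken singly, 16.8% and 20% of all starts were covered. At P21 none of the 10 starts was covered in either library, where 18.9% and 20.5% of all starts were. Of the 2685 starts covered in both P0 libraries, 15.2% were covered in neither P21 library, and all 5 of these genes were among them. At P0 the domains over the 5 starts were 4.60 to 33.6 kb long. The 4 other than Guca1a carried H3K4me3 in both P0 libraries as well, so both marks were called at the same start in bulk retina.

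The domains went at different stages. At P14, where 17.2% and 23.4% of all starts were covered, those over Abca4, Cdhr1 and Gucy2e were gone in both libraries. The Tulp1 start was covered in P14 replicate 2 by a domain of 3.80 kb, but not in replicate 1. The Guca1a start stayed covered in both P14 libraries, by domains of 37.2 and 41.4 kb. At P21 the domain upstream of Guca1a remained, 24.2 and 23.6 kb long, and ended 1.31 and 1.51 kb before the start, so 1 of the 10 genes had a domain within 2 kb. Guca1a, the only one of the 10 covered in both P14 libraries, was also the only one whose H3K27Ac peak was called in both libraries at P21 but not at P14. The P12 libraries were made with another antibody (AB3, where the other stages used AB1) and are not compared with those stages.

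**Figure D5:**
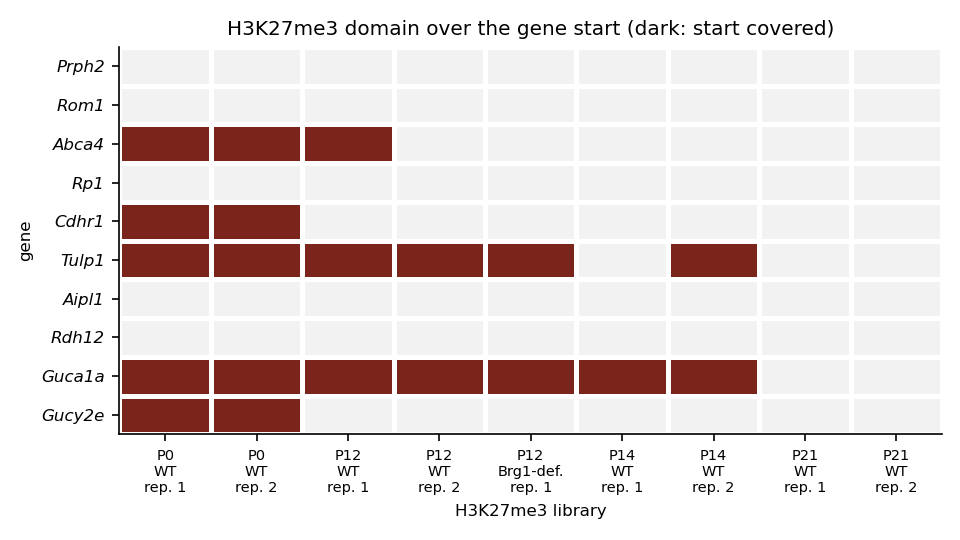
H3K27me3 domain over the start (dark) or not (light) for the 10 genes (rows) in the 9 H3K27me3 libraries (columns, by stage, genotype and replicate). At P0, 5 genes are dark in both libraries and none is dark at P21, and Guca1a is dark in every library before P21.

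Brg1 peaks were found at many of these starts at P0, as at many starts in general. In the 1 Brg1-FLAG library, 7 of the 10 genes had a peak within 2 kb of the start, against 54.8% of all starts. Of the 7 genes with H3K4me3 in both P0 libraries, 6 had one, against 83.4% of such starts. With 10 genes, these counts do not set them apart from other starts. Heights were 8.72 at Gucy2e, 8.71 at Tulp1, 6.91 at Rom1, 4.66 at Abca4, 4.42 at Cdhr1, 4.18 at Aipl1 and 3.72 at Prph2, where the median over starts with a Brg1 peak was 5.85. The peaks at Gucy2e and Tulp1 stood above 95.1% and 94.8% of all Brg1 peaks and that at Prph2 above 26.7%. Rdh12, Guca1a and Rp1 had no Brg1 peak at the start, and Guca1a and Rp1 had none in the gene or 20 kb to either side. The Tulp1 window held 24 Brg1 peaks in 53.7 kb, up to a height of 12.3, and the next highest count was 8 in 53.7 kb around Aipl1. The start of Tead3 lay in the Tulp1 window, 14.4 kb from that of Tulp1, so these peaks cannot be assigned to Tulp1 alone. Of the 10 genes, 5 had no H3K27Ac peak in either P0 library, and Cdhr1 and Aipl1 of these had a Brg1 peak, against 11.5% of such starts. Among all starts with H3K4me3 but no H3K27Ac at P0, of which Cdhr1 and Rdh12 are 2, 50% had a Brg1 peak. Of the 24 regions called higher in H3K27Ac at P21, 8 (33.3%) overlapped a P0 Brg1 peak, against 25.4% of all regions called higher. With no replicate, these values have no error.

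Loss of Brg1 was set against wild-type at P12, a stage at which the marks were already present. H3K27Ac peaks were found in both Brg1-deficient libraries at 8 of the 10 starts, against 55.5% of all starts, and in the wild-type library at 9 of 10, against 55%. Limma called 0 of 10425 starts, with 90 at an unadjusted p under 0.05, and 0.662% of starts higher at that level. None of the 10 genes was among the 90. With 1 wild-type library, its spread was taken from the other groups and the intervals are wide.

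The fitted differences, Brg1-deficient minus wild-type, ranged from -0.88 to 0.10 (log2). Tulp1 was at 22.2 in the wild-type library and at 15.5 and 22.4 in the Brg1-deficient ones, and its difference was -0.43 with a 95% interval of -2.19 to 1.32. Rom1 was at 21.2 against 22.8 and 20.8. Aipl1 was at 16.3 against 8.23 and 16.1, a difference of -0.57 (-1.61 to 0.46). As deposited, the wild-type height lay between the Brg1-deficient ones for Tulp1 and Rom1 and above both for Aipl1, and after scaling it lay above both for all 3. Guca1a had a low wild-type peak of 3.25 and none in either Brg1-deficient library, a difference of -0.88 (-2.40 to 0.64). Intervals of this width do not show that the genotypes were alike.

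H3K4me3 at P12 rested on 1 library per genotype and has no replicate check. A peak was present at 9 of the 10 starts in both, against 63.5% of all starts in wild-type and 61.9% in the Brg1-deficient library. Heights in the Brg1-deficient library were scaled by the median over starts marked in both (0.661 of the wild-type). Of the 9 genes, 7 then differed by less than 2-fold, with ratios of Brg1-deficient to wild-type of 1.05 to 1.42. As deposited, all 7 were lower in the Brg1-deficient library, with ratios of 0.696 to 0.937, so their direction was set by the scaling. Rdh12 (27.1 against 19.2 as deposited) had a ratio of 2.14 and Guca1a (11.6 against 4.40) one of 3.99, against 4.47% of all starts at least 2-fold either way. Without scaling, Guca1a alone was past 2-fold. At Guca1a the Brg1-deficient library was the higher in H3K4me3 and the wild-type library the higher in H3K27Ac.

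Around the genes, all 24 regions called higher in H3K27Ac at P21 had a peak in the wild-type P12 library, against 91.3% of all regions called higher. In both Brg1-deficient libraries 23 of the 24 had one (95.8%), against 81.0%. The exception was the region at the Guca1a start. The 2.82 kb region there was the one at 3.25 in wild-type and 0 in the Brg1-deficient retinae. Over all 83 tested regions around the genes, called or not, 54 (65.1%) had a peak in both Brg1-deficient libraries, against 67.1% of all regions tested. Of the 74 with a peak in the wild-type P12 library, 73.0% had one in both Brg1-deficient libraries, against 80.8% of all such regions. At Rp1, the stretch 45 to 55 kb into the gene had deposited H3K27Ac heights of 14.4 in wild-type and 13.3 and 12.5 in Brg1-deficient retinae. H3K27me3, which covered 20.3% and 22.6% of all starts in the wild-type P12 libraries and 21.7% in the Brg1-deficient one, covered Tulp1 and Guca1a in all 3 P12 libraries and Abca4 in 1 of the 2 wild-type libraries. As deposited, the photoreceptor markers summed to 89.98 for H3K27Ac in wild-type and 83.9 to 93.5 in Brg1-deficient retinae, and those of progenitors to 9.04 and 13.5 to 17.8. Scaling divided heights by 1.13 in the wild-type library and by 1.38 and 1.35 in the Brg1-deficient ones. On scaled heights the median fitted difference, Brg1-deficient minus wild-type, was -0.32 for the photoreceptor markers and 0.46 for the progenitor markers (log2). The part of these cell types in the values was not tested.

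Other genes of the outer segment and visual cycle were taken from a list of 28, of which 23 had a start and 18 passed the H3K4me3 filter. At P21, 9 were higher in H3K4me3 than at P0 by limma and 1 was lower, and at P14 8 were higher and 1 lower. Over all starts 0.888% were higher and 5.58% lower at P21, and 0.562% and 1.28% at P14. The lower one in both was Lrat, the lecithin retinol acyltransferase of the pigment epithelium, named after its value was seen because it was alone (log2 change -1.23 ± 0.27 at P21, limma, adjusted p = 0.019). For H3K27Ac 0 of 19 tested were called, with 9 higher and 1 lower at P21 at an unadjusted p under 0.05, where 3.95% of all starts were higher. Several of the genes higher in either mark were listed at 0 for that mark in both P0 libraries. They passed the filter through the later stages alone, so the counts of higher genes are a description. Summed H3K27Ac heights over the 23 starts were 63.4 to 81.4 at P0, 203 to 266 at P14 and 162 to 171 at P21.

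The profile of the genes over the 17 H3K4me3 and H3K27Ac libraries was set against all 10195 starts marked in at least 2 libraries of each mark. The 5 others most like their mean were Olfr1132 (Pearson r 0.97), Lrit2 (0.97), Impg1 (0.97), Tdrd7 (0.97) and Rdh8 (0.97), where the median of all starts was -0.23 and the 95th percentile 0.63. Impg1 encodes a proteoglycan of the matrix between photoreceptors, and Rdh8 is the retinol dehydrogenase of the outer segment. All 5 were at 0 in both marks in all P0 libraries. Lrit2 lies within the window of Cdhr1. The position of the olfactory receptor gene Olfr1132 is uncertain, since the offset used put only 7.05% of neighbouring starts near a peak. Against the mean of the other members, Abca4 (0.93), Cdhr1 (0.93) and Tulp1 (0.92) were closest and Guca1a (0.62) was furthest. These r values share libraries, replicates and scaling and are a description.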

How the data were processed

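ChIP-Seq peaks of mouse retina were analysed for 27 libraries. Per the submitters' processing notes, BWA 0.5.9-r26, CASAVA, Picard 1.65, SAMtools, bedtools 2.17.0, R 2.14.0, MACS2 2.0.9 and SICER 1.1 were named, with build mm9. The authors deposited, for each library, MACS2 peaks with fold enrichment and a −log10 q-value, and for H3K27me3 SICER domains with a score, which was not used as a value here. Read depth is not given in the sources used here, so no interval was computed from counts. Starts of 17275 coding genes were moved from GRCm38 to mm9 by local offsets. Each offset was constant over a stretch of a chromosome, and the stretches were chosen to bring starts within 1 kb of wild-type P0 H3K4me3 peaks. There were 118 stretches, and 62.4% of the starts lay within 1 kb of such a peak. A single offset from coding genes within 5 Mb was an alternative. The height at a start was the highest fold enrichment within 2 kb. Heights were scaled to one median over the starts, or regions, with a peak in every library, kept with a peak in at least 2 libraries, and tested on the log2(height + pseudocount) scale with limma 3.58.1 in R 4.3.3 at a Benjamini-Hochberg adjusted p of 0.05. The pseudocount was the 5th percentile of heights above 0 (7.31 for H3K4me3, 3.21 for H3K27Ac, 3.42 in the P12 fit and 2.08 for regions), so that a change understates that of low peaks. Wild-type stages were fitted together over 6 libraries, and the P12 genotypes with all 9 H3K27Ac libraries. H3K4me3 at P12, with 1 library per genotype, was called at 2-fold with no test. In simulated data, 62.5% of 200 starts changed by 2 on the log2 scale were recovered for H3K4me3 (11041 starts), 35% for H3K27Ac (10116 starts) and 0% for regions (33340 regions). The simulated baseline was the mean of the heights above 0, with noise from rows with a peak in every library. These rates therefore do not give the sensitivity for starts or regions listed at 0 at P0. Alternatives were no scaling, other pseudocounts, no filter, an equal number of peaks, other distances and offsets, a replicate block and each library left out. All 10 members were named in every comparison, other genes of the pathway only if called in H3K27Ac, and the 5 genes with the most similar profile by Pearson r. The members and lists were chosen with earlier results of these data known. Input libraries had no peak file and were not used here.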

Additional observations from a re-analysis of the deposited data

How the results depend on the processing

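The number of the 10 genes called depended on the settings. For H3K4me3, 5 genes were called higher at P14 than at P0, but 0 without scaling, 2 without the filter and 0 to 5 with 1 library left out. At P21, 6 were called, but 2 without scaling, 1 without the filter and 2 to 6 with 1 library left out. Over all starts, 203 calls at P14 became 20 without scaling and 99 without the filter, and 714 at P21 became 58 and 127. Without P21 replicate 1 the P21 changes of Rom1 (-0.15) and Gucy2e (-0.019) turned sign, and without P21 replicate 2 they were 0.26 and 0.53. For H3K27Ac at starts, an equal number of peaks per library gave 2 genes called at P21 and 205 starts in place of 0. For regions, P14 against P0 gave 0, but 15 with a pseudocount of 1 (2489 over all) and 21 with an equal number of peaks (4169 over all). P21 against P0 gave 24 (3465 over all), but 0 without scaling and 0 to 38 with 1 library left out, and P21 against P14 gave 0, but 6 with an equal number of peaks (727 over all). With the replicate block, regions at P21 against P0 rose from 24 to 38 (6269 over all), and H3K4me3 at P21 kept a count of 6 with 1504 starts called in place of 714. Same-numbered libraries share only a number, with correlations of their deviations of 0.17 for H3K4me3 at P0 and P21 and 0.011, 0.0060 and 0.24 for H3K27Ac at P0 and P14, P0 and P21, and P14 and P21. The H3K27Ac starts gave 0 calls with the block. No paired analysis was possible for H3K4me3 with P14 or P12 because those groups share fewer than 2 numbers. At P12, small differences between genotypes in H3K27Ac turned sign without scaling at Rom1 (0.034), Abca4 (0.15) and Gucy2e (0.11), and at Prph2 with 1 offset within 5 Mb (-0.18), a setting added after seeing the data. With 1 Brg1-deficient library left out they ranged from -0.083 to 0.21 at Prph2, -0.14 to 0.019 at Abca4, -0.061 to 0.26 at Rdh12 and -0.34 to 0.12 at Gucy2e. None of these P12 differences was called. Without scaling, 1 gene in place of 2 was past 2-fold in H3K4me3 at P12, and 1940 starts in place of 477 were. The starts with H3K27Ac at P0 were 2, but 1 with 1 offset within 5 Mb, 5 with a peak in either replicate and 2 to 5 with 1 library left out. Domains of H3K27me3 within 2 kb, rather than over the start, were found for 1 gene in both P21 libraries in place of 0. The cause of these changes was not tested. With at most 2 libraries per group and no read depth, changes smaller than the spread between libraries were not detectable, and a height of 0 means only that no peak was called.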
